A study of Macaca mulatta with 43 samples.

Results

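Neurotransmitter receptors were taken as every gene whose symbol belongs to the AMPA, kainate, NMDA and metabotropic glutamate, GABA-A, glycine, muscarinic, nicotinic, serotonin, dopamine, adrenergic, histamine, opioid, neuropeptide Y or cannabinoid receptor families and which had a probeset with that symbol alone in the platform's probe table. This gave 75 genes of the 14132 with such a probeset. Each gene was represented by its probeset with the highest mean over all arrays, and 25 of the 75 had several probesets, 117 in all. The nicotinic and serotonin families had 14 genes each and the GABA-A family 11, against 2 for the AMPA family and 1, GRM7, for the metabotropic glutamate receptors. GRIA2, GRIA3, GABRD, GABBR1, GRIN2A, GRIN2B, GRM5, DRD1 and NPY1R were not analysed here. GRIA3 is among the genes that the study ranked highly.

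RNA of prefrontal Brodmann areas 24, 25 and 32, pooled within each animal, was hybridised to 1 Affymetrix Rhesus array per animal from 43 adult male rhesus macaques. The 32 ethanol drinkers were induced by schedule-induced polydipsia, a procedure in which small timed food deliveries promote drinking, and for 1 year then chose between water and 4% (w/v) ethanol, on offer for 22 hours of each day. The 11 controls received maltose dextran solution matched in calories, and water. Cohort 4 had 11 drinkers and no control, cohort 5 had 8 drinkers and 5 controls, cohort 7a had 8 drinkers and 4 controls, and cohort 7b had 5 drinkers and 2 controls. All animals were individually housed.

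Ionotropic glutamate receptors (AMPA, kainate and NMDA) carry fast excitation in cortex, and GABA-A and glycine receptors are chloride channels that carry fast inhibition. Ethanol is known to act on several of these channels, in general enhancing GABA-A and glycine receptors and inhibiting NMDA receptors. The other families are mostly G protein-coupled receptors that tune transmission, with the nicotinic receptors and the serotonin type 3 receptors as cation channels.

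Features of the arrays bear on the results. Cohorts 4 and 5 were extracted with RNeasy Mini and cohorts 7a and 7b with AllPrep, and the arrays were run in 2 processing groups along the same line, so cohort, kit and processing group cannot be told apart. The actin 3' minus 5' value, the log2 difference between the 3' and 5' actin control probesets, which is larger in more degraded RNA, lay between 4.24 and 4.95 in cohorts 4 and 5 and between 0.754 and 1.71 in cohorts 7a and 7b. Between these sets of cohorts, RNA degradation cannot be told apart from kit or processing group. Within cohort 7a it lay between 0.762 and 0.867 in controls and between 0.932 and 1.60 in drinkers, without overlap, and within cohort 7b between 0.754 and 0.806 in controls and 0.763 and 1.71 in drinkers. In cohort 5 the groups overlapped, with controls between 4.24 and 4.74 and drinkers between 4.36 and 4.95. As a check of the tissue, the neuronal markers SYT1, STMN2 and ENO2 and the oligodendrocyte marker CNP were above the median of all values, 5.80, on every array.

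In the 2-class comparison of all drinkers with all controls, 10 of the 73 receptor genes that passed the filter on low values differed at an adjusted p (Benjamini-Hochberg over all probesets) under 0.05. Over all 24151 probesets tested the share called was 16.2%, and over genes with 1 probeset each 16.6%, against 13.7% of receptor genes, so the receptors were close to the background. GRIK2, GRIK1, GRIA1 and GABRB1 were higher in drinkers, as were 5.57% of all probesets, and CHRNB1, GRIA4, HTR1D, HRH1, CHRNA4 and GLRA3 were lower, as were 10.6%. The median log2 difference, drinkers minus controls, was -0.06 over the receptor genes and -0.04 over all probesets. All 10 also passed with processing batch as a block, where 14 receptor genes passed (22.7% of all probesets). Treatment was not balanced over the batches, and batch 8 held 4 drinkers and 0 controls. Without cohort 7b, an alternative chosen after seeing the data, limma called 0 of 73 (GRIA1 was at 0.23, adjusted p = 0.0767), and without 1 or the other of its 2 controls 4 and 3 receptor genes passed. The share of all probesets is not given for these settings, so these counts describe stability only. CHRNB3 and GABRR3 were at low values and were not tested. The mean value of 37 of the 75 receptor genes was below the median of all probesets. Among the called genes this held for HTR1D (4.45) and CHRNA4 (5.76). In bulk tissue, fewer cells of a type and less RNA per cell cannot be told apart in any of these differences.

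The largest of the 10 differences was that of GRIK2 (probeset MmugDNA.35699.1.S1_at), which encodes the GluK2 subunit of kainate receptors. The RMA values, which are log2 intensities, ran from 8.45 to 8.996 in the drinkers of cohort 4 (median 8.77) and from 8.31 to 9.15 in those of cohort 5 (median 8.59), and the 5 controls of cohort 5 were at 8.37, 8.63, 8.67, 8.91 and 9.19. Drinkers and controls therefore overlapped fully in cohort 5. In cohort 7a the drinkers ran from 6.90 to 8.29 (median 7.62) and the controls were at 5.83, 5.88, 6.35 and 6.90. In cohort 7b the drinkers were at 7.16, 7.74, 7.98, 7.99 and 8.80 and the controls at 5.60 and 5.69. Every drinker of cohorts 7a and 7b was above every control of the same cohort, in cohort 7a with the lowest drinker (6.9044) barely above the highest control (6.9035). All 6 of those controls were below every array of cohorts 4 and 5. So were all drinkers of cohort 7a, and those of cohort 7b except the one at 8.80. The log2 difference was 1.02 ± 0.30 (SE) in the 2-class comparison (2.03-fold, adjusted p = 0.0174), -0.14 ± 0.21 in cohort 5, 1.40 ± 0.22 in cohort 7a (2.64-fold, adjusted p = 6.39e-06) and 2.29 ± 0.30 in cohort 7b (4.89-fold, adjusted p = 6.97e-08).

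GRIK1, the GluK1 kainate subunit, was likewise lowest in the controls of cohorts 7a and 7b. Drinkers ran from 9.74 to 10.003 in cohort 4 (median 9.80) and from 9.55 to 9.88 in cohort 5 (median 9.77), beside cohort 5 controls at 9.77, 9.77, 9.78, 9.79 and 9.86. In cohort 7a drinkers ran from 8.92 to 9.63 (median 9.08) and controls were at 8.44, 8.46, 8.70 and 8.83. In cohort 7b drinkers were at 9.20, 9.22, 9.27, 9.28 and 9.53 and controls at 8.66 and 8.71. The groups overlapped in cohort 5 and did not overlap in cohorts 7a and 7b. The log2 difference was 0.40 ± 0.14 in the 2-class comparison (adjusted p = 0.0445), 0.57 ± 0.09 in cohort 7a (adjusted p = 1.07e-05) and 0.62 ± 0.13 in cohort 7b (adjusted p = 0.000124).

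Both AMPA receptor genes analysed here passed the test, in opposite directions. GRIA2 and GRIA3 were not analysed, so this does not describe the whole AMPA family. GRIA1 (MmugDNA.20338.1.S1_at), the GluA1 subunit, ran from 9.84 to 10.33 in the drinkers of cohort 4 (median 10.04) and from 9.72 to 10.11 in those of cohort 5 (median 9.91), with cohort 5 controls at 9.83, 9.88, 9.89, 9.90 and 9.96. In cohort 7a drinkers ran from 9.70 to 10.01 (median 9.84) and controls were at 9.17, 9.57, 9.57 and 9.62, and in cohort 7b drinkers were at 9.86, 10.01, 10.18, 10.29 and 10.40 and controls at 9.34 and 9.43. All 6 controls of cohorts 7a and 7b were below all other arrays. The log2 difference was 0.32 ± 0.07 in the 2-class comparison (1.25-fold, adjusted p = 0.00289), 0.36 ± 0.09 in cohort 7a (adjusted p = 0.00169) and 0.76 ± 0.12 in cohort 7b (1.70-fold, adjusted p = 1.9e-06).

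GRIA4 (MmugDNA.7637.1.S1_at), the GluA4 subunit, was at 10.79 and 10.89 in the controls of cohort 7b and at 9.39, 10.05, 10.10, 10.18 and 10.22 in the drinkers. In cohort 7a controls were at 10.16, 10.33, 10.42 and 10.77 and drinkers ran from 9.96 to 10.47 (median 10.17). In cohort 5 controls were at 9.87, 10.08, 10.13, 10.34 and 10.36 and drinkers ran from 9.75 to 10.38 (median 10.09), and in cohort 4 drinkers ran from 9.97 to 10.24 (median 10.11). The groups were apart in cohort 7b and overlapped in cohorts 5 and 7a. The log2 difference of -0.28 ± 0.08 in the 2-class comparison passed the test (adjusted p = 0.0173), as did -0.86 ± 0.16 in cohort 7b (adjusted p = 3.09e-05), and -0.21 ± 0.12 in cohort 7a did not (adjusted p = 0.175).

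**Figure D1:**
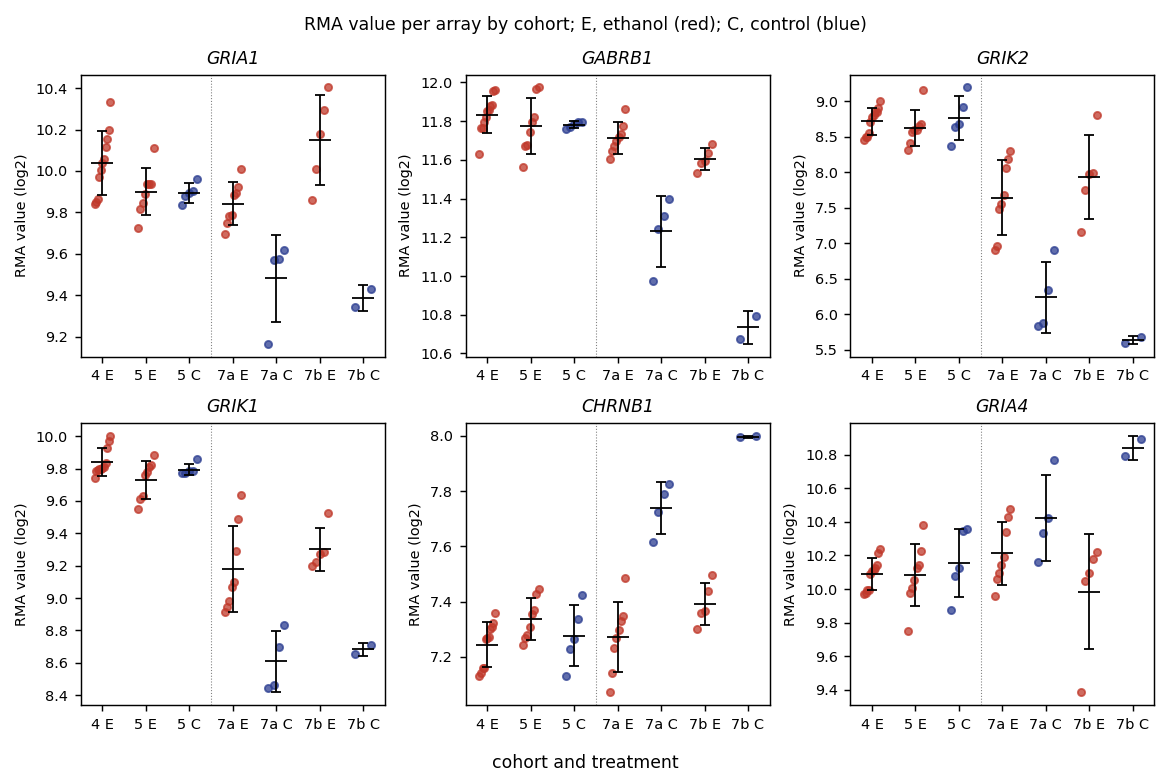
RMA value (log2 intensity, vertical axis) of 6 receptor genes on each of the 43 arrays, by cohort and treatment (E, ethanol drinkers, red; C, controls, blue); black bars are the mean ± SD, the dotted line separates the 2 processing groups, and the vertical axes do not start at 0. In GRIA1, GABRB1, GRIK2, GRIK1 and CHRNB1 the controls of cohorts 7a and 7b lie apart from the drinkers of their cohorts, and in cohort 5 drinkers and controls overlap.

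None of the 5 genes in the NMDA family passed the test in the 2-class comparison. GRIN1, the obligatory subunit, had a log2 difference of -0.13 (adjusted p = 0.673) and GRIN2C 0.03 (adjusted p = 0.821). GRINA, an NMDA receptor-associated membrane protein rather than a channel subunit, was at 0.19 ± 0.09 (adjusted p = 0.129) and passed with processing batch as a block (0.23, adjusted p = 0.00358). Its controls were at 9.09, 9.13, 9.14 and 9.35 in cohort 7a, where drinkers ran from 9.27 to 9.78 (median 9.50), and at 8.96 and 9.05 in cohort 7b, where drinkers were at 9.45, 9.65, 9.69, 9.70 and 9.78. The groups overlapped by 1 control array in cohort 7a and were apart in cohort 7b, with log2 differences of 0.35 ± 0.07 (adjusted p = 0.000154) and 0.65 ± 0.09 (adjusted p = 3.94e-07). GRM7, a presynaptic metabotropic glutamate receptor, was at -0.55 in the 2-class comparison (adjusted p = 0.221) and lower in the drinkers of cohort 7a (-0.56, adjusted p = 0.0152).

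Of the 10 GABA-A receptor genes tested, 1 passed the test. GABRB1 (MmugDNA.24091.1.S1_at), the beta-1 subunit, ran from 11.63 to 11.96 in the drinkers of cohort 4 (median 11.85) and from 11.56 to 11.97 in those of cohort 5 (median 11.77), and cohort 5 controls were at 11.76, 11.77, 11.78, 11.80 and 11.80. In cohort 7a drinkers ran from 11.61 to 11.86 (median 11.71) and controls were at 10.97, 11.24, 11.31 and 11.40, and in cohort 7b drinkers were at 11.53, 11.58, 11.59, 11.63 and 11.68 and controls at 10.68 and 10.80. As for GRIA1, the 6 controls of cohorts 7a and 7b were the lowest of all arrays. The log2 difference was 0.36 ± 0.08 in the 2-class comparison (1.29-fold, adjusted p = 0.00347), 0.48 ± 0.07 in cohort 7a (adjusted p = 8.41e-07) and 0.87 ± 0.09 in cohort 7b (1.83-fold, adjusted p = 7.4e-10). GABRA2, the alpha-2 subunit, had -0.14 (adjusted p = 0.379). GABRG3, the gamma-3 subunit, was lower in cohort 7a (-0.35, adjusted p = 0.00335) and at -0.15 in cohort 7b (adjusted p = 0.378).

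Among the 4 glycine receptor genes GLRA3, the alpha-3 subunit, passed the 2-class test (-0.19 ± 0.07, adjusted p = 0.0440), with controls at 6.16, 6.42, 6.53 and 6.70 in cohort 7a and 6.25 and 6.74 in cohort 7b. The drinkers ran from 6.01 to 6.80 and from 6.19 to 6.40 in these cohorts, so the groups overlapped in both. GLRB, the beta subunit that anchors glycine receptors at synapses, had a log2 difference of -0.14 ± 0.07 (adjusted p = 0.148). Its controls in cohort 7b were at 10.87 and 10.94, above the drinkers at 10.01, 10.08, 10.37, 10.47 and 10.56 (-0.61 ± 0.11, adjusted p = 2.2e-05). In cohort 7a the difference was -0.17 ± 0.08 (adjusted p = 0.102).

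Of 13 nicotinic receptor genes tested none was higher and 2 were lower in the 2-class comparison. CHRNB1 (MmugDNA.18846.1.S1_at), the beta-1 subunit of the muscle-type receptor, ran from 7.13 to 7.36 in the drinkers of cohort 4 (median 7.27) and from 7.24 to 7.44 in those of cohort 5 (median 7.33), with cohort 5 controls at 7.13, 7.23, 7.26, 7.34 and 7.42. In cohort 7a drinkers ran from 7.07 to 7.48 (median 7.28) and controls were at 7.62, 7.72, 7.79 and 7.83, and in cohort 7b drinkers were at 7.30, 7.36, 7.37, 7.44 and 7.50 and controls at 7.995 and 7.9996. The 6 controls of cohorts 7a and 7b were the highest of all arrays, and drinkers of the 4 cohorts occupied the same range. The log2 difference was -0.28 ± 0.06 in the 2-class comparison (1.21-fold lower, adjusted p = 0.00339), -0.47 ± 0.06 in cohort 7a (adjusted p = 2.75e-07) and -0.61 ± 0.08 in cohort 7b (adjusted p = 2e-07).

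CHRNA4, the alpha-4 subunit of the main high-affinity receptor of brain, had controls at 5.72, 5.73, 5.81, 5.83 and 5.84 in cohort 5, 5.72, 5.79, 5.90 and 6.13 in cohort 7a and 5.98 and 6.34 in cohort 7b. Drinkers ran from 5.38 to 5.84 in cohort 4 (median 5.67), from 5.50 to 5.97 in cohort 5 (median 5.69) and from 5.59 to 5.84 in cohort 7a (median 5.78), and were at 5.35, 5.80, 5.82, 5.99 and 6.07 in cohort 7b. The groups overlapped in each cohort with controls. The 2-class log2 difference was -0.18 ± 0.06 (adjusted p = 0.0311). CHRNA5, an accessory subunit, was at -0.06 (adjusted p = 0.528). CHRNA7, which forms the alpha-7 homomeric channel, was at -0.02 in the 2-class comparison (adjusted p = 0.922) and lower in the drinkers of cohort 7a (-0.36 ± 0.11, adjusted p = 0.00994), where controls were at 10.69, 10.72, 10.90 and 11.37 and drinkers ran from 10.26 to 10.74 (median 10.59).

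Of 14 serotonin receptor genes HTR1D, a Gi-coupled receptor found on axon terminals, passed. Controls were at 4.21, 4.39, 4.44, 4.45 and 4.57 in cohort 5, 4.40, 4.78, 4.79 and 5.00 in cohort 7a and 4.64 and 4.79 in cohort 7b. Drinkers ran from 4.21 to 4.52 in cohort 4 (median 4.40), from 4.25 to 4.53 in cohort 5 (median 4.40) and from 4.14 to 4.69 in cohort 7a (median 4.43), and were at 4.24, 4.24, 4.44, 4.53 and 4.65 in cohort 7b. The groups overlapped in every cohort, and the 2-class log2 difference was -0.18 ± 0.06 (adjusted p = 0.0211). HTR2A, the Gq-coupled receptor of pyramidal cells, was at -0.08 (adjusted p = 0.697) and HTR3A, a subunit of the serotonin-gated channel of some interneurons, at 0.06 (adjusted p = 0.739).

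Of 3 histamine receptor genes HRH1, the Gq-coupled H1 receptor, passed. Controls were at 8.31, 8.31, 8.41, 8.42 and 8.44 in cohort 5, 8.20, 8.33, 8.40 and 8.65 in cohort 7a and 8.30 and 8.42 in cohort 7b. Drinkers ran from 8.002 to 8.51 in cohort 4 (median 8.30), from 8.16 to 8.46 in cohort 5 (median 8.25) and from 7.85 to 8.30 in cohort 7a (median 8.15), and were at 7.77, 7.84, 8.17, 8.19 and 8.23 in cohort 7b. The groups were apart in cohort 7b and overlapped in cohorts 5 and 7a, and the 2-class log2 difference was -0.18 ± 0.06 (adjusted p = 0.0294). HRH3, the presynaptic autoreceptor, was at -0.16 (adjusted p = 0.538).

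No muscarinic, opioid, dopamine, adrenergic, neuropeptide Y or cannabinoid receptor gene passed the 2-class test. The member with the smallest p in each was CHRM4 (-0.19, adjusted p = 0.259), OPRM1 (0.18, adjusted p = 0.132), DRD2 (-0.05, adjusted p = 0.460), ADRB3 (-0.14, adjusted p = 0.133), NPY5R (-0.21, adjusted p = 0.104) and CNR1 (-0.38, adjusted p = 0.0651). CHRM1, the main cortical muscarinic receptor, was at -0.34 (adjusted p = 0.386) and OPRK1, the kappa opioid receptor, at -0.12 (adjusted p = 0.711). In cohort 7a 3 of the 4 muscarinic receptor genes were lower in drinkers, as were 20.3% of all probesets. These genes were CHRM1 (-0.30, adjusted p = 0.0497), CHRM4 (-0.33, adjusted p = 0.00674) and CHRM5 (-0.19, adjusted p = 0.0347). In cohort 7b CHRM3, a Gq-coupled receptor, was higher (0.35, adjusted p = 0.0388). With batch as a block no muscarinic receptor gene was called in cohort 7a or in cohort 7b. OPRM1, the mu opioid receptor, had controls at 7.06, 7.12, 7.19 and 7.40 in cohort 7a, where drinkers ran from 7.36 to 7.81 (median 7.54), and at 7.23 and 7.25 in cohort 7b, where drinkers were at 7.55, 7.61, 7.66, 7.69 and 8.31. The groups overlapped in cohort 7a and were apart in cohort 7b, and the differences passed in both (0.39, adjusted p = 0.0161, and 0.52, adjusted p = 0.0132). No opioid receptor gene was called higher in cohort 7a, or called at all in cohort 7b, with batch as a block. CNR1, the presynaptic cannabinoid receptor of cortex, had controls at 5.73, 5.85, 6.04 and 6.42 in cohort 7a, where drinkers ran from 5.27 to 5.84 (median 5.61), and at 5.92 and 6.07 in cohort 7b, where drinkers were at 5.26, 5.31, 5.38, 5.41 and 5.88. It was lower in drinkers in both (-0.43, adjusted p = 0.00141, and -0.55, adjusted p = 0.00167). NPY5R, a Gi-coupled neuropeptide Y receptor, was lower in cohort 7b (-0.89, adjusted p = 1.46e-05), where controls were at 8.01 and 8.40 and drinkers at 6.89, 7.39, 7.41, 7.42 and 7.49.

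Cohort by cohort, in a limma model with a mean for each of the 7 cohort and treatment groups, the differences lay in cohorts 7a and 7b. All groups share 1 estimate of the spread of each probeset, over all 43 arrays. The precision given for a cohort therefore does not rest on its own arrays alone. In cohort 5 limma called 0 of 73 receptor genes, with 0.0% of all probesets called, and 1 receptor gene and 731 of all probesets had an unadjusted p under 0.05. In cohort 7a 6 receptor genes were higher and 11 lower (23.3%), with 30.9% of all probesets called, 10.6% higher and 20.3% lower. In cohort 7b 8 were higher and 14 lower (30.1%), with 40.1% of all probesets called, 14% higher and 26.1% lower, on 2 control arrays. In both cohorts the receptor genes were called less often than all probesets; that difference was not tested. With processing batch as a block 14 receptor genes passed in cohort 7a (26.4% of all probesets) and 18 in cohort 7b (30.5% of all probesets). The controls of cohort 7b were in batches 6 and 7 and its drinkers in batches 4, 6 and 8. Batch and treatment are therefore only partly separated in that cohort.

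Of these calls 10 were shared, that is 10 of the 17 called in cohort 7a (58.8%) and of the 22 called in cohort 7b (45.5%), and they had the same sign in both. They were CHRNB1, CNR1, GABRB1, GRIA1, GRIK1, GRIK2, GRINA, HRH1, HTR1D and OPRM1. Over all probesets 21.8% passed in both, against 13.7% of receptor genes, and these shared calls made up 70.5% and 54.3% of the calls in the respective cohorts. No receptor gene had drinkers and controls apart in cohort 5, where 0.166% of all probesets did. In cohort 7a 6 did (11.0% of all probesets), namely GABRB1, GRIA1, GRIK1 and GRIK2 with drinkers higher and CHRM5 and CHRNB1 with drinkers lower. In cohort 7b 25 receptor genes did, where 43.2% of all probesets did.

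**Figure D2:**
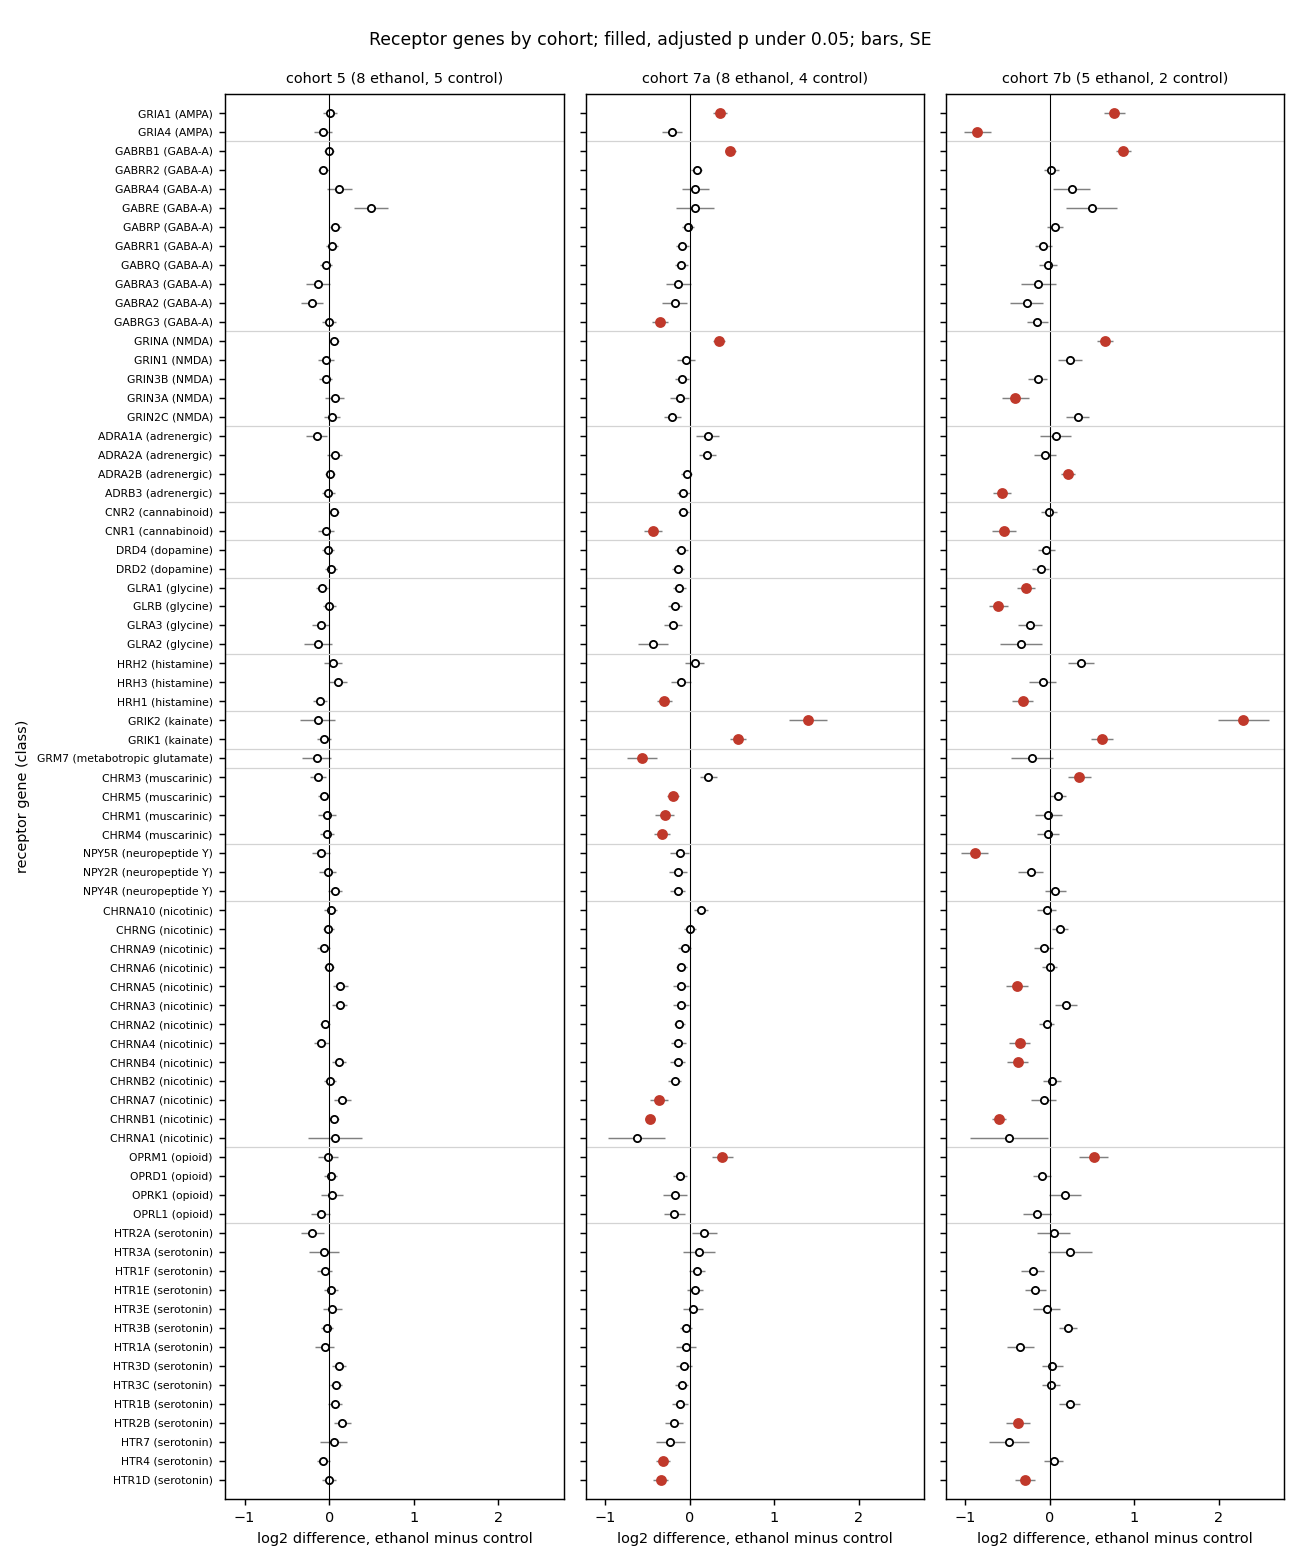
Log2 difference, ethanol drinkers minus controls (horizontal axis, bars are the SE of the limma model), of the 73 receptor genes tested, in rows by receptor class, in cohort 5 (left), cohort 7a (middle) and cohort 7b (right); filled red points have an adjusted p under 0.05. No point is filled in cohort 5, 17 are in cohort 7a and 22 in cohort 7b, and GRIK2 lies farthest from 0 in cohort 7b, at 2.29.

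The difference between cohorts was itself tested, as the ethanol effect in cohort 7a minus that in cohort 5. It passed for 7 of 73 receptor genes (9.59%, against 14.5% of all probesets). CHRNB1 differed by -0.53 ± 0.08 (adjusted p = 3.95e-05), GABRB1 by 0.49 ± 0.09 (adjusted p = 0.000386), GRIK2 by 1.54 ± 0.30 (adjusted p = 0.000585), GRIK1 by 0.63 ± 0.13 (adjusted p = 0.000736) and CHRNA7 by -0.51 ± 0.15 (adjusted p = 0.0154). GRINA (0.29, adjusted p = 0.0302) and GRIA1 (0.36, adjusted p = 0.0399) also passed. The other members called in cohort 7a are not shown by this test to respond differently there than in cohort 5.

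The actin 3' minus 5' value given above moved with treatment in cohort 7a, 1 of the cohorts that carried the differences. With the actin 3' minus 5' value and cohort as covariates, 8 receptor genes passed (15.6% of all probesets), among them GRIA1 (0.34, adjusted p = 0.00377), GABRB1 (0.30, adjusted p = 0.00579), CHRNB1 (-0.19, adjusted p = 0.0253) and GRIK2 (0.57, adjusted p = 0.0335). GRIK1, GRIA4, HTR1D, HRH1, CHRNA4 and GLRA3 did not. With the RNA integrity number and batch as covariates, on the 42 arrays that had one, limma called 0 of 73 receptor genes and 0.762% of all probesets. An unadjusted p under 0.05 was found for 13 of the 73 receptor genes and 4588 of the 24151 probesets. In that model the log2 difference of GRIA1 was 0.29 (adjusted p = 0.0641), against 0.32 in the 2-class comparison, that of GABRB1 was 0.18 (adjusted p = 0.104), against 0.36, and that of GRIK2 was 0.33 (adjusted p = 0.276), against 1.02, or 0.72 with batch alone. RNA quality and treatment cannot be told apart in cohort 7a, where the actin values of drinkers and controls did not overlap. In cohort 7b the values overlapped, but the median was also higher in drinkers (0.995) than in controls (0.780). The part of RNA quality was not tested within that cohort.

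**Figure D3:**
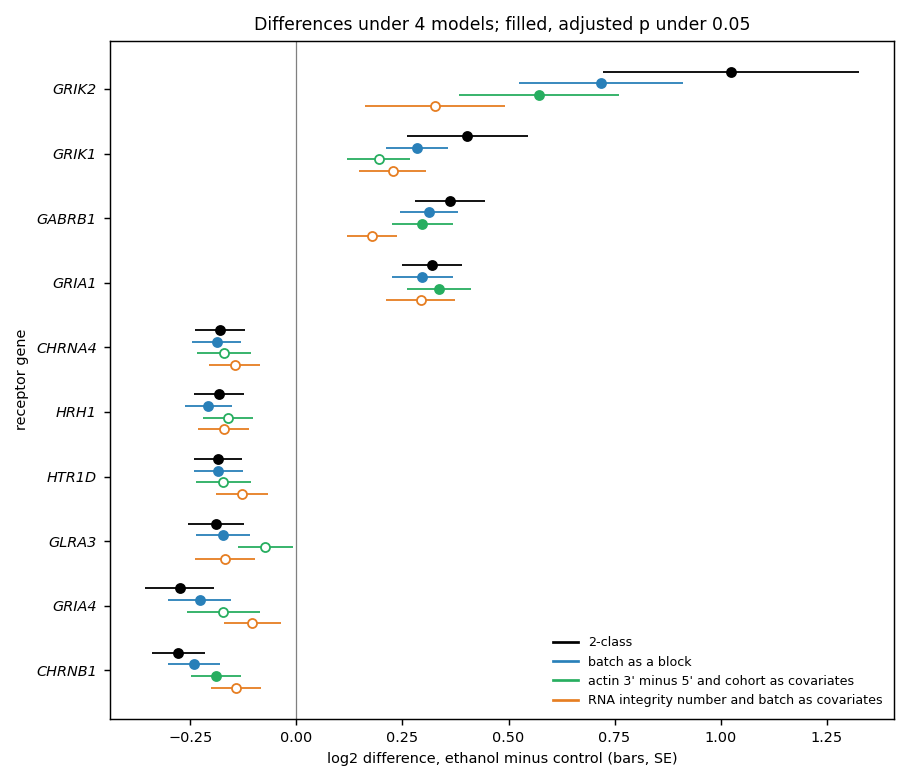
Log2 difference, ethanol drinkers minus controls (horizontal axis, bars are the SE), of the 10 receptor genes called in the 2-class comparison, under 4 models drawn in different colours; filled points have an adjusted p under 0.05. Batch as a block kept all 10 calls (with 22.7% of all probesets called), the actin and cohort covariates kept those of GRIK2, GABRB1, GRIA1 and CHRNB1, and none of the 10 passed with the RNA integrity number and batch as covariates.

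Several receptor genes had more than 1 probeset, and these did not always move together. Of the 10 called genes 7 had other tested probesets, 9 in all, of which 7 had the same sign in the 2-class comparison and 1 was also called. The other GRIK2 probeset had a log2 difference of 0.20 in cohort 7a (adjusted p = 0.125) and 0.09 in cohort 7b (adjusted p = 0.664), beside 1.40 and 2.29 for the one used. The other GABRB1 probesets had -0.01 and -0.13 in cohort 7a and -0.20 and 0.47 in cohort 7b, none of which passed. The other GRIA1 probeset had 0.15 and 0.31, also short of the threshold. The other GRIA4 probeset had the opposite sign, 0.33 in cohort 7a (adjusted p = 0.0333) and 0.30 in cohort 7b (adjusted p = 0.143). The differences of these genes therefore rest on 1 probeset each.

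In the cohort 7a and 7b group means GLRB and CHRNA7 gave the same direction from every probeset. The 5 GLRB probesets had log2 differences between -0.17 and -0.43 in cohort 7a, with adjusted p of 0.102 for the one used and from 0.00287 to 0.0213 for the others, and between -0.56 and -1.21 in cohort 7b, where all passed. In the 2-class comparison 2 of them passed, at -0.26 (adjusted p = 0.0222) and -0.39 (adjusted p = 0.00454). The 4 CHRNA7 probesets had between -0.23 and -0.46 in cohort 7a, where 3 passed and the remaining one had an adjusted p of 0.0524, and between -0.07 and -0.35 in cohort 7b, where 1 passed. With batch as a block 2 of the 4 CHRNA7 probesets turned to 0.03 and 0.02 in cohort 7b, and in cohort 5 the 4 had 0.15, 0.14, 0.28 and -0.02, none passing. All 5 GLRB probesets stayed below 0 with batch as a block in both cohorts. Probesets of 1 gene read the same RNA samples and are not replicates.

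**Figure D4:**
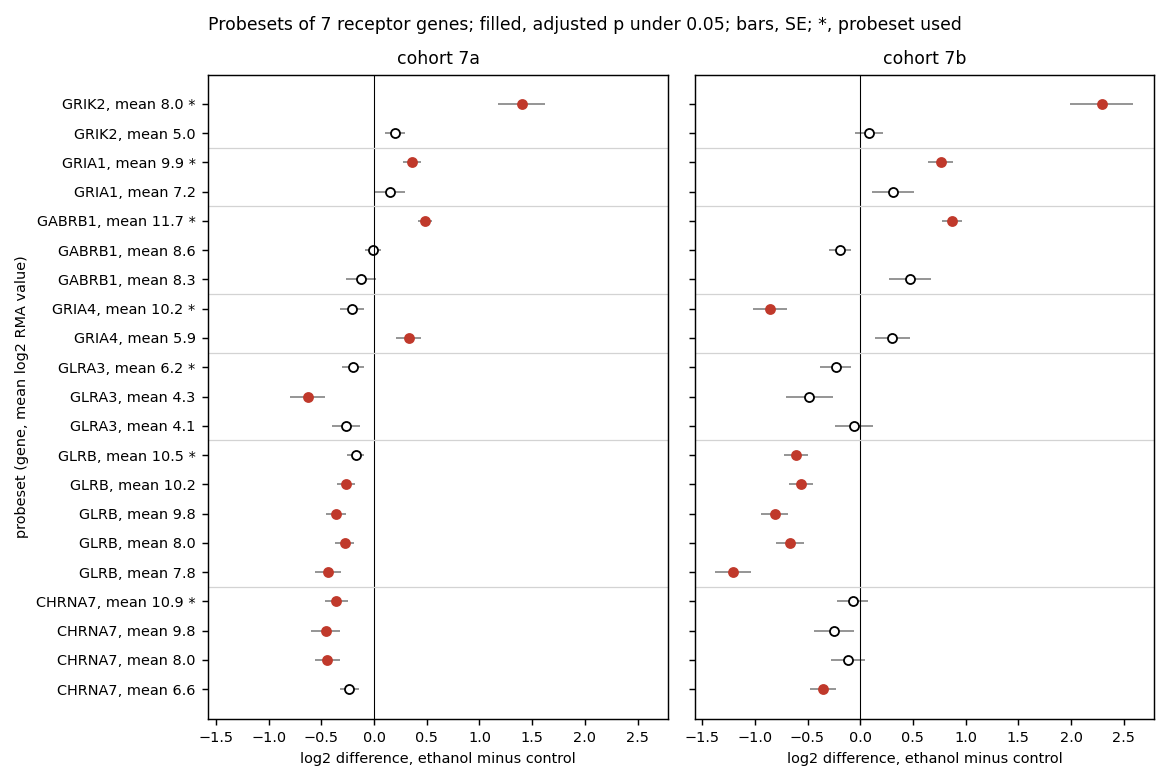
Log2 difference, ethanol drinkers minus controls (horizontal axis, bars are the SE), of each tested probeset of 7 receptor genes in cohort 7a (left) and cohort 7b (right); each row gives the gene and the probeset's mean RMA value, an asterisk marks the probeset used for the gene, and filled points have an adjusted p under 0.05. All GLRB and CHRNA7 probesets lie left of 0 in these 2 cohorts, and for GRIK2, GRIA1 and GABRB1 only the probeset with the highest mean is filled.

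Between the 2 processing groups, receptor levels differed among drinkers alone. The mean RMA value of the 13 drinkers of cohorts 7a and 7b was over 1 log2 unit from that of the 19 drinkers of cohorts 4 and 5 for 4 of the 75 receptor genes (5.33%, against 4.19% of all probesets tested). These were GRM7 (5.74 against 4.12), CHRM1 (6.98 against 5.54), GABRA3, the GABA-A alpha-3 subunit (8.49 against 7.18), and GRIN1 (6.49 against 5.40). The largest difference downward was that of GRIK2 (7.75 against 8.67). The 2 sets of drinkers did not overlap for 12 of the 73 genes tested, while 13.5% of all probesets did not overlap. Cohort, kit and processing group cannot be told apart in these differences.

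**Figure D5:**
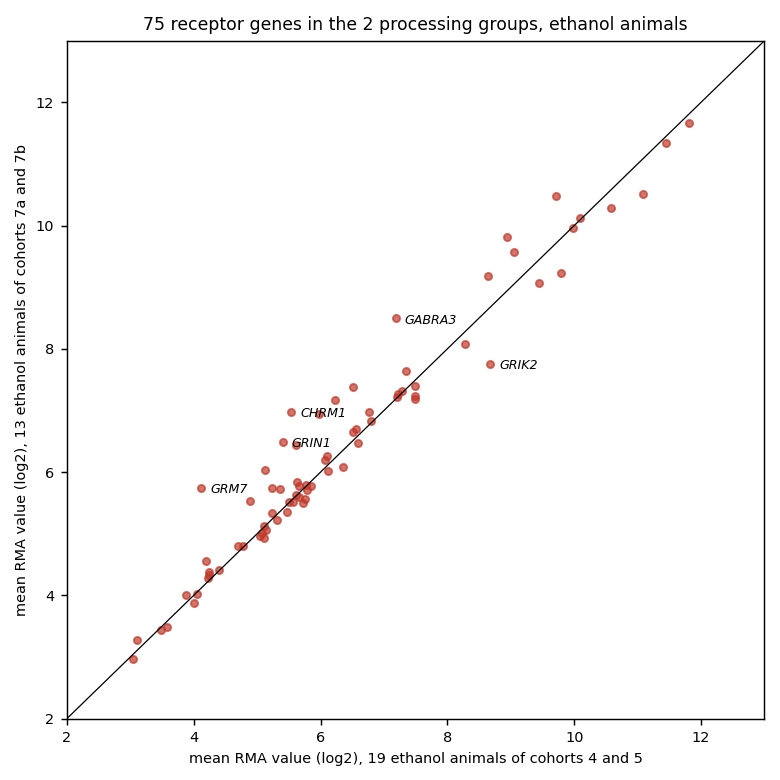
Mean RMA value (log2) of the 75 receptor genes in the 19 ethanol drinkers of cohorts 4 and 5 (horizontal axis) and the 13 of cohorts 7a and 7b (vertical axis); each point is a gene, the line marks equal values, and named genes are those over 1 log2 unit apart and GRIK2. GRM7, CHRM1, GABRA3 and GRIN1 lie above the line and GRIK2 below it.

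Genes that scaffold, traffic or supply these receptors were examined by 3 fixed lists. Of 22 tested scaffolds and auxiliary subunits of glutamate receptors, 2 rose in the 2-class comparison, DLG3 (0.22, adjusted p = 0.0220), which encodes the scaffold SAP102, and DLGAP4 (0.22, adjusted p = 0.0389), a postsynaptic density protein, and none fell (median 0.01). Of 14 such genes of inhibitory receptors none rose and SHISA7, a GABA-A receptor auxiliary subunit, fell (-0.25, adjusted p = 0.0333; median -0.02). Of 19 genes of transmitter synthesis and uptake 3 rose and none fell (median 0.00). These were GAD2, which makes GABA (1.12, adjusted p = 0.000946), SLC6A7, the proline transporter (0.50, adjusted p = 0.000946), and SLC6A17, a vesicular amino acid transporter (0.25, adjusted p = 0.0408). These 2-class calls made up 9.09%, 7.14% and 15.8% of the lists, beside 16.2% of all probesets. In cohort 5 none of these lists had a gene that passed. In cohort 7a 8 of 22 (36.4%), 3 of 14 (21.4%) and 5 of 19 (26.3%) did, beside 30.9% of all probesets, and in cohort 7b 13 of 22 (59.1%), 5 of 14 (35.7%) and 4 of 19 (21.1%), beside 40.1%. The scaffold list moved both ways in these cohorts, with 6 higher and 2 lower in cohort 7a, where HOMER3 (-0.34, adjusted p = 0.00654) and AKAP5 (-0.61, adjusted p = 0.00112) fell, and 9 higher and 4 lower in cohort 7b. GAD2 rose in cohorts 7a (1.51) and 7b (2.22), with adjusted p of 2.18e-10 and 1.24e-11.

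Markers of cell types were read on the same arrays. Of 5 tested inhibitory neuron markers GAD2 and LHX6 were higher and VIP lower in the 2-class comparison. In cohort 7b PVALB was also lower (-1.53, adjusted p = 6.31e-05) and GAD1 was at -0.11 (adjusted p = 0.394). The mean level of the list, which averages these opposite changes, ran from 8.63 to 8.90 in the controls and 8.84 to 9.28 in the drinkers of cohort 7a, and was 9.06 in both controls and 8.93 to 9.23 in the drinkers of cohort 7b. Of 7 microglial markers none was higher and AIF1 and P2RY12 were lower in the 2-class comparison. By cohort they moved both ways. In cohort 7a CD68 was higher (0.32, adjusted p = 0.000587) and AIF1, CX3CR1 and P2RY12 were lower. In cohort 7b CSF1R was higher (0.36, adjusted p = 0.0123) and AIF1 and P2RY12 were lower. The mean level of the microglial list ran from 7.79 to 8.07 in the controls and 7.50 to 7.82 in the drinkers of cohort 7a. In cohort 7b it ran from 7.92 to 7.95 in controls and 7.58 to 7.87 in drinkers. No tested marker of neurons in general (3 genes), excitatory neurons (4), astrocytes (5), oligodendrocytes (2), oligodendrocyte precursors (3), endothelium (5) or mural cells (2) passed the 2-class test. Cohort by cohort, 0 of the 36 markers of all types passed in cohort 5, 10 in cohort 7a (30.9% of all probesets) and 18 in cohort 7b (40.1% of all probesets), 7 higher and 11 lower in the latter. In cohort 7b the neuronal marker ENO2 (-0.61, adjusted p = 4.46e-06), the excitatory neuron marker TBR1 (-0.40, adjusted p = 0.000513) and the endothelial marker PECAM1 (-0.41, adjusted p = 0.0127) were lower, and NRGN of excitatory neurons (0.44, adjusted p = 0.00243) and the astrocyte markers GFAP (0.84, adjusted p = 0.000409) and SLC1A2 (0.65, adjusted p = 0.00128) were higher. NRGN and SLC1A2 were also higher in cohort 7a, and the astrocyte marker S100B was lower in both cohorts (-0.41 and -0.53). Inhibitory neuron, microglial and astrocyte markers thus moved in opposite directions in both cohorts, and excitatory neuron markers did so in cohort 7b. Of the 5 endothelial markers, CLDN5 (-0.36, adjusted p = 0.0462) and CDH5 (-0.43, adjusted p = 0.0311) were lower in cohort 7b beside PECAM1, and none was called higher. The part of cell composition in the receptor differences was not tested.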

How the data were processed

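The deposited table holds log2 RMA values of 52865 probesets on 43 arrays, which the authors background corrected and quantile normalized in a single group with affy. A batch-adjusted table in the study's supplement, of which 912 probesets were at hand, was used only to recover the 8 processing batches. Probe symbols came from the platform annotation: 24956 probesets had 1 symbol, 361 several and 27390 none. Control probesets (158) and probesets below 3.5 on 80% of arrays or more were left out, as were those with no symbol, which left 24151. limma 3.58.1 (R 4.3.3) was fitted to all of them, as drinkers against controls (2-class) and as a mean per cohort and treatment group, with Benjamini-Hochberg adjustment and a threshold of 0.05. Each array is 1 animal; their number limits the precision. The script was tested on simulated data. The ComBat method, written out in R without covariates, gave batch-adjusted values, within 0.000423 of that table.

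Named genes were those past the threshold, the member with the smallest p in each class, a fixed list of 25 (16 measured) and the 5 with the smallest p in cohort 7a minus cohort 5. Members and lists were chosen with earlier results of these data known. The RNA integrity numbers, given in the study's supplement, served only as a covariate. Alternatives covered batch, covariates, filters, probeset choice and leaving out arrays. No sequence or genome coordinate was analysed here, since no build was named in the sources used here.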

Additional observations from a re-analysis of the deposited data

Results flagged for a closer look

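The ethanol effect in cohort 7a differed from that in cohort 5, by the limma test of the difference, for 7 receptor genes: CHRNB1 by -0.53, GABRB1 by 0.49, GRIK2 by 1.54, GRIK1 by 0.63, CHRNA7 by -0.51, GRINA by 0.29 and GRIA1 by 0.36 on the log2 scale. These cohorts also differed in extraction kit, processing group and actin 3' minus 5' value, whose part was not tested.

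Single arrays lay far from the rest of their group for the named genes in 13 of 145 groups of 4 to 10 arrays, by Dixon's criterion, which chance passes in about 5% of groups. In the drinkers of cohort 7b, 1 array was low for GRIA4 (9.39, others 10.05 to 10.22) and NPY5R (6.89, others 7.39 to 7.49). Another was low for HTR2A (8.77, others 9.06 to 9.17) and high for HTR3A (6.40, others 4.99 to 5.40), and another was high for GRIK1 (9.53, others 9.20 to 9.28) and CHRNA7 (10.72, others 10.34 to 10.42). OPRM1 was at 8.31 in 1 drinker (others 7.55 to 7.69) and CNR1 at 5.88 in 1 (others 5.26 to 5.41). In the controls of cohort 7a, 1 array was low for GRIA1 (9.17, others 9.57 to 9.62) and 1 high for GRM7 (6.39, others 6.20 to 6.21). In cohort 5, GRIK1 was at 9.86 in 1 control (others 9.77 to 9.79), GRIK2 at 9.15 in 1 drinker (others 8.31 to 8.68) and CHRNA4 at 5.97 in 1 drinker (others 5.50 to 5.72).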

How the results depend on the processing

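The 4 receptor genes higher and 6 lower in drinkers were not kept under every setting. With the RNA integrity number and batch as covariates 0 were higher and 0 lower, as with arrayWeights, which called 0 of all probesets. The same 0 and 0 came, in settings chosen after seeing the data, from cohorts 4 and 5 only with batch as a block, cohort 5 only, all arrays without cohorts 7a and 7b, and all arrays without cohort 7b. With the probeset of largest variance 2 were higher, and at an adjusted p of at most 0.01, 2 were higher and 1 lower. Lower genes numbered 14 with cohort as a block, 3 with the actin value and cohort as covariates and 2 without cohort 4. Of all 24151 probesets 5202 were lower with cohort as a block and 2050 with the actin value and cohort. For the settings that left out arrays or cohorts the share of all probesets is not given, so those counts describe stability only. Leaving out 1 control at a time gave 2 to 4 higher and 1 to 8 lower; without Coh7b_Ctrl 37 there were 2 and 2, without Coh7b_Ctrl 38, 2 and 1, without Coh7a_Ctrl 27, 2 and 2, and without Coh7a_Ctrl 25, 3 and 3. GRIA1, GABRB1 and CHRNB1 passed under all 11 of these, GRIK2 under 8. In cohort 7b, fitting that cohort alone gave 12 calls against 22, and leaving out 1 array 12 to 21, with 12 without Coh7b_Ctrl 37. Leaving out 1 array gave 0 to 0 calls in cohort 5, 15 to 17 in cohort 7a and 5 to 9 for the difference between cohorts 7a and 5. The sign of called genes turned in cohorts 4 and 5: CHRNB1 was at 0.009 with batch as a block, 0.0599 in cohort 5 only and 0.0063 without cohorts 7a and 7b, GRIK2 at -0.0902, -0.136 and -0.0822 in the same settings, GABRB1 at -0.0043 and GRIK1 at -0.0622 in cohort 5 only, none passing. GABRB1 was at -0.0313 by its probeset of largest variance. The cause was not tested. No paired analysis was possible because the groups share no replicate numbers.

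Cohort 7b rests on 2 control arrays and cohort 4 has none. Where several probesets of a gene disagree, the expression of the gene as a whole is not settled by these values.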

Other observations

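Receptor genes varied to different degrees among animals of the same group. The pooled within-group SD of the RMA value had a median of 0.15 over the 75 genes. It was largest for CHRNA1, the alpha-1 subunit of the muscle-type nicotinic receptor (0.53), GRIK2 (0.39), GABRE, the GABA-A epsilon subunit (0.36), and GLRA2, the glycine receptor alpha-2 subunit (0.34), and smallest for ADRA2B, an alpha-2 adrenergic receptor (0.09), CHRNB1 (0.09) and CNR2, the cannabinoid receptor best known from immune cells (0.09). The log2 difference of GABRE was 0.49 in cohort 5 (adjusted p = 1), only 0.07 in 7a (adjusted p = 0.852) and 0.49 in 7b (adjusted p = 0.198).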
